A study of Mus musculus with 6 samples.

Results

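The Trim12/Trim30 cluster is a run of related tripartite motif (TRIM) genes on mouse chromosome 7. Its members are here the 9 genes Trim34a, Trim5, Trim12a, Trim34b, Trim12c, Trim30b, Trim30c, Trim30a and Trim30d, taken by symbol from a table of 55487 genes. They were picked because several differed between Bmal1;CKO and control cells, sorted from retinas by endothelial reporters. Their difference between the genotypes is therefore given as a description and carries no test. All 9 are annotated as protein-coding and lie between positions 104244457 and 104507849 of the GRCm38 assembly, a span of 263 kb, with 2 genes on the forward strand and 7 on the reverse strand.

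The RNA came from retinas of 3 Bmal1;CKO (Bmal1 FL/FL;tdTomato FL/+;Pdgf-icreER) and 3 control (tdTomato FL/+;Pdgf-icreER) animals at P7.5, all given tamoxifen from P0.5 to P2.5. The Pdgf-icreER transgene drives an inducible Cre and GFP in endothelium, Cre switches on tdTomato, and cells positive for both colours were sorted. Bmal1, a transcription factor of the circadian clock, is listed as Arntl and starts 8.70 Mb beyond the cluster on the same chromosome. Only Bmal1;CKO samples carried the floxed allele, so the loss of Bmal1 and the stretch of chromosome 7 that came with that allele cannot be told apart in this design. The table holds 6 columns, called control libraries 1 to 3 and Bmal1;CKO libraries 4 to 6, and its numbers match no single sample of the series' descriptions.

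A library held between 71145068 and 104017800 reads on genes. Levels are normalized counts, that is, reads divided by a size factor per library, and the limit set on a count of 0 was 3 reads, which came to 2.14 to 4.22 normalized counts depending on the library. All 14 endothelial markers had at least 10 reads in every library, with summed levels of 232461 to 410707 normalized counts in control and 137732 to 293175 in Bmal1;CKO. The 10 markers of microglia and macrophages were also present, with sums of 1457310 to 4313190 in control and 2111900 to 4207930 in Bmal1;CKO. The 8 rod markers summed to 496811 to 708889 in control and 293078 to 606995 in Bmal1;CKO. In every library the microglial sum and the rod sum were each above the endothelial sum. The RNA was therefore not of endothelial cells alone, and the cell type behind a read of the cluster is not known. Between the genotypes, all 14 endothelial markers were lower in Bmal1;CKO (median log2 difference -0.45) and 9 of the 10 microglial markers higher (0.41). Of either, 0 had an unadjusted p under 0.05 in limma-trend. All 8 rod markers were lower (-0.33), 2 of them at that p, against 4.92% of all 20459 tested genes. Lymphocyte markers summed to at most 33.2 normalized counts and neutrophil markers to at most 9.85. The female transcript Xist had 5, 3 and 6 reads in control libraries 1 to 3 and 312, 2885 and 938 reads in Bmal1;CKO libraries 4 to 6. The Y-linked gene Ddx3y had 1004, 1504 and 1484 reads in control and 77, 0 and 463 in Bmal1;CKO, so sex moved with genotype in part, and libraries 4 and 6 held reads of both genes. The share of sex and of cell composition in the values below was not tested, and in bulk RNA fewer cells of a type and less RNA per cell cannot be told apart.

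TRIM proteins carry a RING finger, a B-box and a coiled coil, and many act as ubiquitin ligases in innate immunity. TRIM5 of primates binds the incoming capsid of retroviruses through a carboxy-terminal SPRY domain, blocks infection and signals through ubiquitin chains to the TAK1 kinase complex. In mice the corresponding locus has been duplicated several times: Trim5, Trim12a and Trim12c form one branch, Trim30a to Trim30d another, and Trim34a and Trim34b belong to TRIM34, a neighbour of TRIM5 in other mammals too. Many of these genes are induced by interferon, and Trim30a is known as a brake on NF-κB signalling that acts on TAB2 and TAB3, the adaptors of TAK1.

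The sequence around the starts of the genes shows how close the copies are. RefSeq gives 10 start sites for the 9 genes in GRCm38.p6, with 2 for Trim30a, and for each start the 250 bases before it and the 50 bases after it were searched on both strands. The core of the interferon-stimulated response element, GAAANNGAAA, was in 7 of the 10 windows and 6 of the 9 genes, against 3.44% of all 32851 mouse windows of this length. The 30 bases around each match are shown on the strand of the gene, with the element (read from the opposite strand) in capitals, since it is the feature most of these genes share.
Trim34a, chr7:104244457-104244486, forward strand: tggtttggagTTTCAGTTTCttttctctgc
Trim5, chr7:104288136-104288165, reverse strand: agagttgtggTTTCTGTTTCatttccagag
Trim12a, chr7:104315466-104315495, reverse strand: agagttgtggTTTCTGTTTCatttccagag
Trim12c, chr7:104353359-104353388, reverse strand: agagttgtggTTTCTGTTTCatttccagct
Trim30a, chr7:104465210-104465239, reverse strand: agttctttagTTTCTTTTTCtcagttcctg
Trim30a (downstream start), chr7:104446104-104446133, reverse strand: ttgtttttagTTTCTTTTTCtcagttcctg
Trim30d, chr7:104507871-104507900, reverse strand: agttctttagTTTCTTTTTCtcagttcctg
Trim30c, aligned stretch without a match, chr7:104400896-104400925, reverse strand: agttctgtggTTCCTTTTTCtcagttccac

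The elements of Trim5 and Trim12a sat in identical 30-base stretches, and those of Trim30a and Trim30d in another identical pair. Trim30c carried the substitution T3C against Trim30a, counted from 1 at the first capital base, and therefore did not match. Trim34b and Trim30b had no match either, which says only that these letters are not in their windows. The canonical E-box CACGTG, the motif bound by BMAL1 with CLOCK, was in 0 of the 10 windows of the cluster and in 7.15% of all windows. Over their aligned parts the windows of Trim5 and Trim12a were identical at 241 of 241 bases, those of Trim12a and Trim12c at 247 of 260, and those of Trim30a and Trim30d at 276 of 295.

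The sequence just upstream of the start is printed for Trim12a and Trim12c, whose windows are nearly identical while the mean was lower in Bmal1;CKO for Trim12a and higher for Trim12c, and for Trim34b, the member that was higher in Bmal1;CKO without overlap. Capitals again mark the element, and the Trim12c stretch ends 13 bases before the RefSeq start. The element of Trim12a begins 10 bases after its RefSeq start, so it lies outside the stretch printed here and is not missing from the gene.
Trim12a, chr7:104315496-104315745, reverse strand: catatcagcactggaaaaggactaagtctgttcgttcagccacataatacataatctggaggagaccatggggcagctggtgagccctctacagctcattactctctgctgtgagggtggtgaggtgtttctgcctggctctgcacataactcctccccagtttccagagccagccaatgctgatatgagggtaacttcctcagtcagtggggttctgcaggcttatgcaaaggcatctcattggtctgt
Trim12c, chr7:104353363-104353599, reverse strand: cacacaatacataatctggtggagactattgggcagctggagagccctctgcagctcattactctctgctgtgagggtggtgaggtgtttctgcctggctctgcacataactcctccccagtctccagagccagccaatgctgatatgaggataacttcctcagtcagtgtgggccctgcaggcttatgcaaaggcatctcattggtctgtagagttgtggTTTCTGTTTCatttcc
Trim34b, chr7:104329221-104329470, forward strand: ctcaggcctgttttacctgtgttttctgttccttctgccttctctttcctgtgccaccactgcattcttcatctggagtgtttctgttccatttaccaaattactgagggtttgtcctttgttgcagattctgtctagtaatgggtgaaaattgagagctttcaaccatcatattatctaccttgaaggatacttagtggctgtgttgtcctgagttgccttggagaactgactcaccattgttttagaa

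In the Trim5/Trim12 branch, Trim12a and Trim5 were at or near 0 in Bmal1;CKO, whereas Trim12c was read in all 3 Bmal1;CKO libraries. Trim12a (ENSMUSG00000066258, chr7:104299894-104315466) had 1869, 1326 and 940 reads in control libraries 1, 2 and 3 and 3, 4 and 0 reads in Bmal1;CKO libraries 4, 5 and 6. In normalized counts this was 2300, 1230 and 672 against 4.22, 3.45 and 0. Trim12a was thus abundant in all 3 control libraries and at or near 0 in all 3 Bmal1;CKO libraries, and the lowest control value was 159 times the highest Bmal1;CKO value. The control mean was 1401 ± 827 (SD, n = 3) and the Bmal1;CKO mean 2.56 ± 2.25 (SD, n = 3), a ratio of 548. On the log2(normalized count + 1) scale the fitted difference, Bmal1;CKO minus control, was -8.76 (SE 1.04).

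Trim5 (ENSMUSG00000060441, chr7:104263386-104288094) is the mouse gene that carries the name of the primate restriction factor. It had 8, 147 and 138 reads in control libraries 1, 2 and 3 and 0 reads in each of the 3 Bmal1;CKO libraries. The control values were 9.84, 136 and 98.6 normalized counts (81.6 ± 65.0, SD, n = 3). The control mean was at least 26.4-fold higher than Bmal1;CKO if the latter is set to 3 reads per library. The groups did not overlap, but control library 1 stood far below the other control libraries. Trim5 did not reach 10 reads in 3 libraries and so was not among the 20459 genes fitted.

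Trim12c (ENSMUSG00000057143, chr7:104338754-104353362), which is known to enhance signalling through TRAF6, did not follow its copy. Its levels were 3.69, 182 and 308 normalized counts in control libraries 1, 2 and 3 and 357, 361 and 237 in Bmal1;CKO libraries 4, 5 and 6. The control mean was 165 ± 153 (SD, n = 3), the Bmal1;CKO mean 319 ± 70.4 (SD, n = 3), and the groups overlapped through Bmal1;CKO library 6. The fitted log2 difference of 2.29 (SE 1.53) leaned on control library 1, without which it was 0.40. Summed over Trim12a and Trim12c, the levels were 2303, 1412 and 980 normalized counts in control and 361, 364 and 237 in Bmal1;CKO, and these sums did not overlap between the genotypes.

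**Figure D1:**
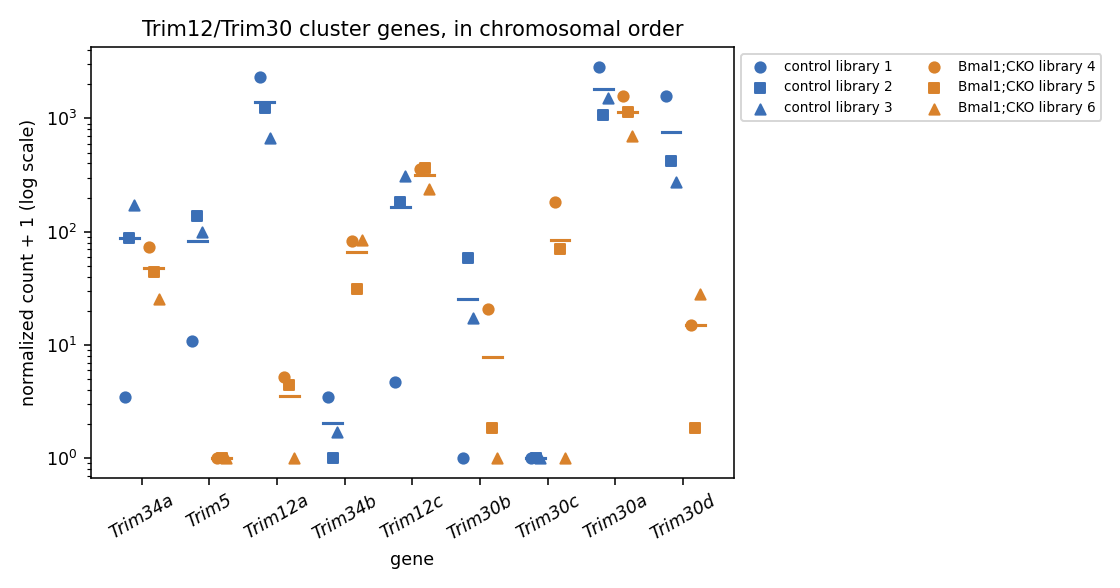
Normalized counts plus 1 (log axis) of the 9 cluster genes in chromosomal order, 1 symbol per library, blue for control and orange for Bmal1;CKO, with a bar at the mean of each group. Trim5, Trim12a and Trim30d were lower and Trim34b higher in Bmal1;CKO without overlap, and the groups of the other 5 genes overlapped.

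In the Trim30 branch, Trim30d was nearly absent from Bmal1;CKO, Trim30a was abundant in every library, and Trim30c was read only in Bmal1;CKO libraries 4 and 5. Trim30d (ENSMUSG00000057596, chr7:104470014-104507849) had 1286, 452 and 385 reads in control libraries 1, 2 and 3 and 10, 1 and 33 reads in Bmal1;CKO libraries 4, 5 and 6. Its levels were 1582, 419 and 275 normalized counts in control and 14.1, 0.864 and 27.2 in Bmal1;CKO. The lowest control library was 10.1 times the highest Bmal1;CKO library, and within each genotype the libraries themselves were uneven. The means were 759 ± 717 (SD, n = 3) and 14.0 ± 13.2 (SD, n = 3), a ratio of 54.1, with a fitted log2 difference of -5.94 (SE 1.28).

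Trim30a (ENSMUSG00000030921, chr7:104409025-104465193), the regulator of TAB2 and TAB3, held 2846, 1080.2 and 1514 normalized counts in control libraries 1, 2 and 3. In Bmal1;CKO libraries 4, 5 and 6 it held 1585, 1146 and 701. The groups overlapped, with means of 1813 ± 920.1 and 1144 ± 442 (SD, n = 3 each) and a fitted log2 difference of -0.62 (SE 0.48). It was the sole member with at least 10 reads in every library.

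Trim30c (ENSMUSG00000078616, chr7:104382065-104400837) had 0 reads in each control library and 129, 81 and 0 reads in Bmal1;CKO libraries 4, 5 and 6. Its normalized counts in Bmal1;CKO were 181, 70.0 and 0, with a mean at least 29.2-fold higher than control if the latter is set to 3 reads per library. Because Bmal1;CKO library 6 was also at 0, the groups overlapped. Trim30b (ENSMUSG00000052749, chr7:104355382-104369884) was low in all libraries, with 0, 57.5 and 16.4 normalized counts in control and 19.7, 0.864 and 0 in Bmal1;CKO, and its groups overlapped (fitted log2 difference -1.58, SE 1.94).

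In the Trim34 branch, Trim34b appeared in Bmal1;CKO while Trim34a was uneven in both genotypes. Trim34b (ENSMUSG00000090215, chr7:104329471-104336909), which lies between Trim12a and Trim12c on the opposite strand, had 2, 0 and 1 reads in control libraries 1, 2 and 3 and 58, 35 and 102 reads in Bmal1;CKO libraries 4, 5 and 6. In normalized counts these were 2.46, 0 and 0.715 against 81.6, 30.2 and 84.0. The groups did not overlap, and the lowest Bmal1;CKO value was 12.3 times the highest control value. With only 3 reads in control, the ratio of the pooled reads per unit of size factor was 69.4, with an exact 95% counting interval of 23.4 to 339, and the fitted log2 difference was 5.06 (SE 1.17). This interval covers counting error only.

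Trim34a (ENSMUSG00000056144, chr7:104244457-104262234) had 2.46, 87.2 and 172 normalized counts in control libraries 1, 2 and 3 and 71.7, 43.2 and 24.7 in Bmal1;CKO libraries 4, 5 and 6. Control library 1 was the lowest and control library 3 the highest of all 6. The means were 87.3 ± 84.9 and 46.5 ± 23.7 (SD, n = 3 each), while the fitted log2 difference was 0.21 (SE 1.57), so mean and fit differed in sign. Without control library 1 the fit gave -1.50, and no direction can be given for this gene.

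Of the 9 members, 4 did not overlap between the genotypes, 3 of them lower (Trim5, Trim12a, Trim30d) and 1 higher (Trim34b) in Bmal1;CKO. Among the 34419 genes with a read in any library, 8.20% did not overlap, 3.18% with lower and 5.02% with higher values in Bmal1;CKO. As the members were picked on this same contrast, nothing is read from that difference. Of the 7 members with enough reads for the fit, 3 did not overlap, against 11.2% of the 20459 fitted genes (4.54% lower and 6.62% higher in Bmal1;CKO). Of these 3, Trim12a and Trim34b had enough reads only through the group where they were high. Nothing is read from this share either. The range of the 7 fitted log2 differences, from -8.76 to 5.06, spans both directions. The mean was lower in Bmal1;CKO for 6 members and higher for 3.

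**Figure D2:**
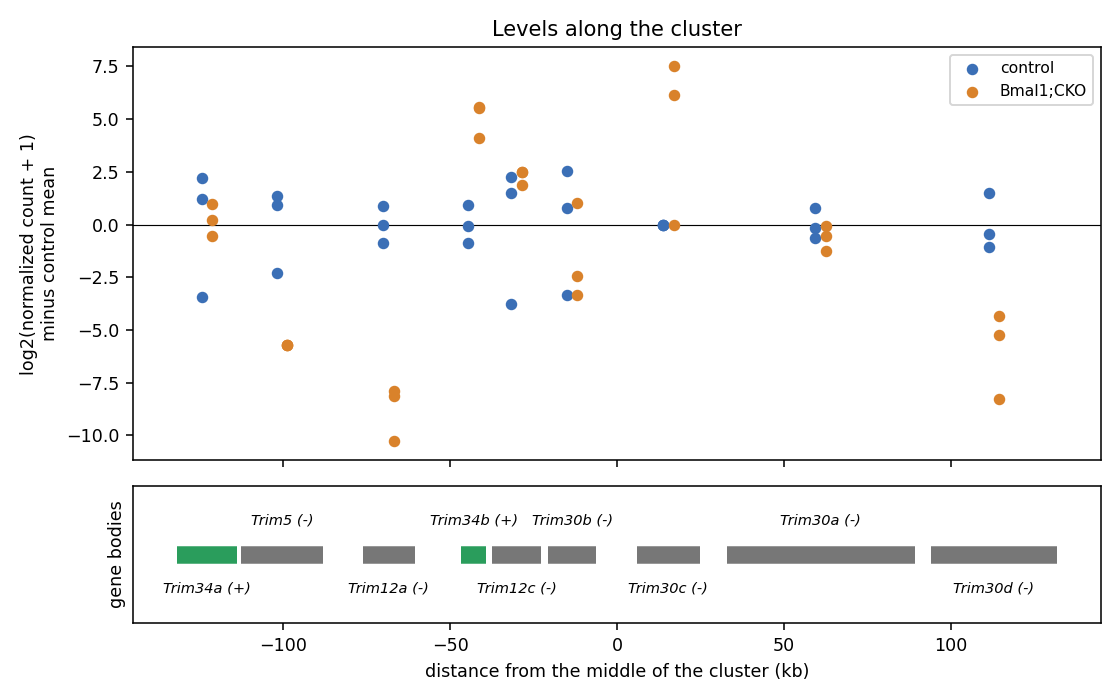
Upper panel: log2(normalized count + 1) of each library minus the control mean of that gene, against the position of the gene from the middle of the cluster in kb (blue control, orange Bmal1;CKO, 1 point per library). Lower panel: gene bodies to scale, green on the forward and grey on the reverse strand; the Bmal1;CKO points lie far below the control points at Trim5, Trim12a and Trim30d and far above at Trim34b, and the points of the other 5 genes overlap between the genotypes.

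In chromosomal order, Trim5 and Trim12a, neighbours on the reverse strand, were both lower in Bmal1;CKO without overlap. The next 5 genes were not: Trim34b was higher without overlap, and the groups of Trim12c, Trim30b, Trim30c and Trim30a overlapped. Trim30d, at the far end, was again lower without overlap. Trim12a and Trim12c within the Trim5/Trim12 branch, and Trim30a and Trim30d within the Trim30 branch, thus stood in different classes by overlap.

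Summed over its 9 genes, the cluster was read less in Bmal1;CKO, and its make-up differed. The 9 genes together held 62.9, 42.9 and 41.1 RPM (reads scaled to library totals on genes) in control libraries 1, 2 and 3 and 23.1, 19.3 and 14.0 in Bmal1;CKO libraries 4, 5 and 6. The summed normalized counts averaged 4332 ± 2092 in control against 1682 ± 621 in Bmal1;CKO (SD, n = 3 each), and the groups did not overlap. As the members were picked on this contrast, nothing is read from the sums. Trim12a and Trim30d, both lower without overlap, weighed on them, while the groups of Trim30a, the most abundant member, overlapped. Control library 1, with the highest cluster sum, also had the highest endothelial and the highest microglial marker sums. In control libraries 2 and 3 the microglial sums were the lowest, and the endothelial sums lay below those of Bmal1;CKO libraries 4 and 6. Their cluster sums, 3193 and 3057 normalized counts, lay above those of every Bmal1;CKO library. A link between cluster sum and cell composition was not tested.

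Trim12a made up 34.1%, 38.5% and 22.0% of the cluster's reads in control libraries 1, 2 and 3 and 0.182%, 0.209% and 0% in Bmal1;CKO libraries 4, 5 and 6. For the library at 0 of 1304 reads, the Wilson 95% interval, which covers counting error only, reached 0.294%. Trim30a took 42.2%, 33.8% and 49.5% in control and 68.5%, 69.2% and 65.3% in Bmal1;CKO, so more than 6 in 10 cluster reads in each Bmal1;CKO library belonged to this gene. Trim12c took 0.0547%, 5.70% and 10.1% in control and 15.4%, 21.8% and 22.1% in Bmal1;CKO. Shares within a library are bound to each other, and the total was smaller in Bmal1;CKO. The larger share of Trim30a there went with a lower mean level (1144 against 1813 normalized counts in control). That of Trim12c went with a higher mean level (319 against 165), and the groups of both genes overlapped in level.

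**Figure D3:**
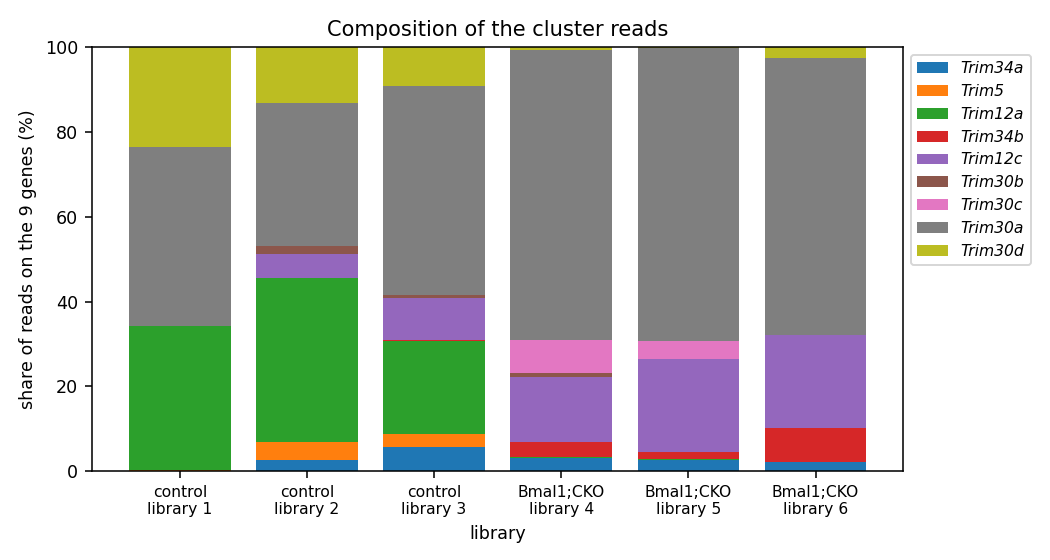
Share of the reads on the 9 cluster genes (%, y axis from 0 to 100) taken by each gene in the 3 control and 3 Bmal1;CKO libraries. Trim12a and Trim30d fill a large part of the control bars and almost none of the Bmal1;CKO bars, where Trim30a takes 65.3% to 69.2%.

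Levels of different genes were compared per kilobase of exon. In control the order was Trim30a (441 ± 224 normalized counts per kb), Trim12a (242 ± 143), Trim30d (202 ± 191), Trim12c (44.0 ± 40.9), Trim34a (33.7 ± 32.7), Trim5 (22.1 ± 17.6), Trim30b (3.28 ± 3.94), Trim34b (0.572 ± 0.684) and Trim30c at 0 (mean ± SD, n = 3 each). The ranges of all neighbours in this order overlapped. In Bmal1;CKO the order was Trim30a (278 ± 108), Trim12c (85.2 ± 18.8), Trim30c (48.8 ± 53.3), Trim34b (35.3 ± 16.4), Trim34a (18.0 ± 9.14), Trim30d (3.74 ± 3.50), Trim30b (0.910 ± 1.48), Trim12a (0.442 ± 0.389) and Trim5 at 0. Here Trim30a stood clear of Trim12c, and Trim34a of Trim30d, while the ranges of the other neighbours overlapped. Trim12a, the second gene in control, was next to last in Bmal1;CKO.

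How far a read can tell these copies apart bears on each value. Of all 50-base windows in the annotated transcripts of Trim34b, 56.8% also occurred in another member, always Trim34a. The share was 39.8% for Trim34a, 29.5% for Trim5, 28.7% for Trim12c, 7.78% for Trim12a, 7.49% for Trim30d and 5.98% for Trim30a, and under 1% for Trim30b and Trim30c. With 150-base windows it was 11.6% for Trim34b, 8.06% for Trim34a, 3.24% for Trim30a and 3.23% for Trim30d. It was 2.89% for Trim5, 2.54% for Trim12c and 0.382% for Trim12a. The treatment of reads that map to several places is not given in the sources used here. Values of Trim34a and Trim34b are therefore less certain than those of Trim12a, Trim30a and Trim30d at either length. Trim5 and Trim12c shared more than Trim30a and Trim30d at 50 bases but less at 150 bases, so these genes are not ranked. Added together, Trim34a and Trim34b gave 4.92, 87.2 and 173 normalized counts in control and 153, 73.4 and 109 in Bmal1;CKO, and these sums overlapped.

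**Figure D4:**
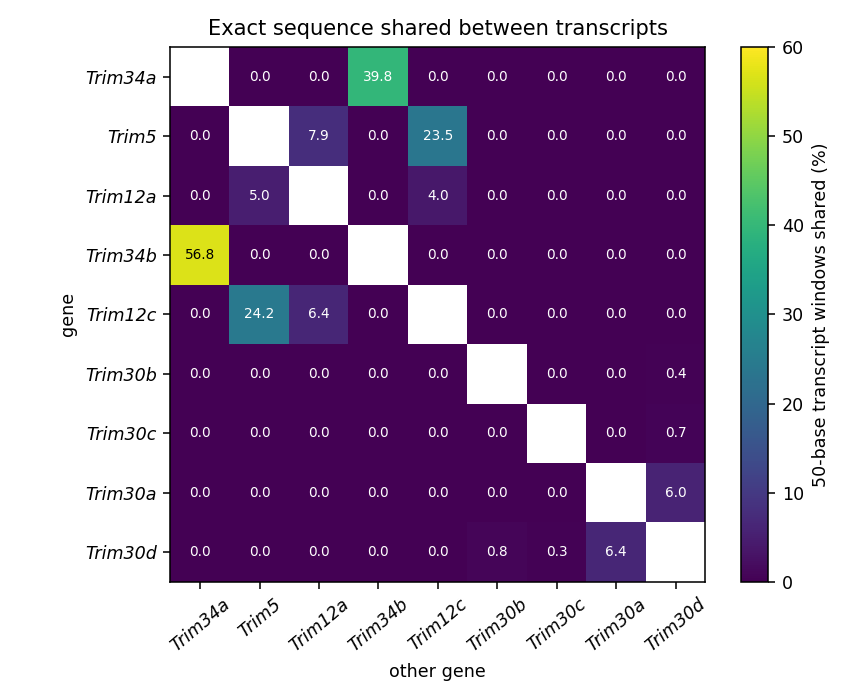
Share of the 50-base windows of each gene's annotated transcripts (rows, %) that occur unchanged in the transcripts of another cluster gene (columns). The Trim34a and Trim34b pair (39.8% and 56.8%) and the Trim5 and Trim12c pair share most, whereas 7.78% of Trim12a windows occur in any other member.

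Sequence differences between the samples and GRCm38 were not analysed here. Use of strand in the counting is not stated, so a gene and an antisense partner cannot be told apart. Gm15133, antisense to Trim12a over 448 bases, had 68 reads in control library 1 and 0 in the other 5 libraries. Gm16464, a processed pseudogene inside Trim30d on the same strand, had 476, 548 and 745 normalized counts in control and 409, 449 and 462 in Bmal1;CKO. Its groups did not overlap, but its log2 difference was -0.40 (SE 0.43, adjusted p = 0.886 from limma-trend), against -5.94 for the gene around it.

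None of the tested genes next to the cluster passed a threshold. Within 1 Mb of its ends, 162 other genes are listed, 55 had a read and 13 could be tested. Of these 13, 4 had a higher and 9 a lower level in Bmal1;CKO, the median log2 difference was -0.28, and 0 passed an unadjusted p of 0.05 in limma-trend, where 4.92% of all 20459 genes did (3.17% higher and 1.75% lower in Bmal1;CKO). The groups of 2 of the 13 did not overlap, 1 lower and 1 higher in Bmal1;CKO, against 11.2% of all fitted genes. The nearest tested genes were Hbb-bs, a beta-globin gene, and Dnajc19-ps on one side and Gm6593 and Gm4887 on the other. Their log2 differences were -0.69, -0.42, -0.37 and -0.22 (adjusted p from 0.884 to 0.924 in limma-trend). Dnajc19-ps, Gm6593 and Gm4887 are processed pseudogenes, for which the treatment of multi-mapping reads matters, and Hbb-bs ran from 968 to 13289 normalized counts within control. Over all tested genes the median log2 difference was 0.11, and 0 genes passed an FDR of 0.05 in limma-trend, with 1007 at an unadjusted p under 0.05 and 67 at that FDR in DESeq2.

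Between the cluster and Arntl, 68 genes were tested, of which 33 were higher and 35 lower with a median log2 difference of -0.04. At an unadjusted p of 0.05, 3 passed, all lower in Bmal1;CKO: the deubiquitinase Usp47 (-0.76), the actin-oxidizing enzyme Mical2 (-2.27) and Adm (-0.92), which encodes the vasoactive peptide adrenomedullin. That is 4.41% of the 68 genes, and none passed after adjustment (adjusted p = 0.883 each in limma-trend). Arntl itself had 1700, 3489 and 2928 normalized counts in control and 1779, 2747 and 2415 in Bmal1;CKO. Its groups overlapped, and the table gives 1 value per gene, which does not separate the floxed exon. By droplet digital PCR of sorted endothelial cells, the authors report significantly less Bmal1 transcript in Bmal1;CKO than in control.

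**Figure D5:**
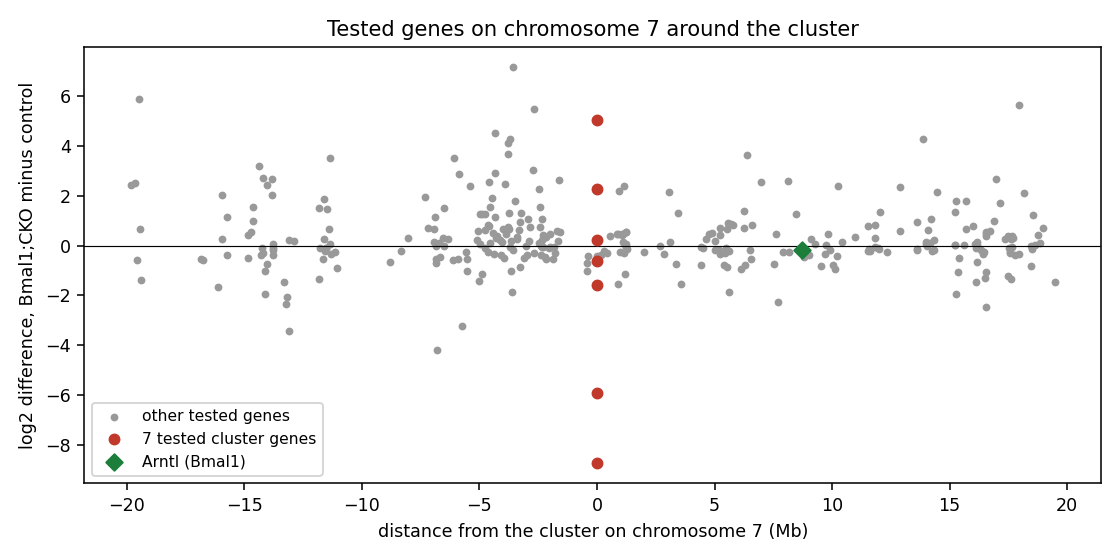
Log2 difference between Bmal1;CKO and control of the tested genes on chromosome 7 within 20 Mb of the cluster, against distance from the cluster in Mb (grey other genes, red the 7 tested cluster genes, green Arntl). The 13 other genes within 1 Mb lie between -1.55 and 2.19, while the cluster genes at 0, picked on this contrast, reach from -8.76 to 5.06. Other genes beyond 1 Mb lie between -4.21 and 7.18.

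By distance from the cluster on either side, the share of genes at an unadjusted p under 0.05 was 10.2% of 108 genes from 1 to 5 Mb, 6.94% of 72 genes from 5 to 10 Mb and 4.23% of 142 genes from 10 to 20 Mb, against 4.92% of all tested genes. From 1 to 5 Mb, 9 of the 11 such genes were higher in Bmal1;CKO and the median log2 difference of all 108 was 0.33, whereas from 5 to 10 Mb all 5 such genes were lower and the median was -0.07.

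Genes that work with TRIM5 and TRIM30 proteins were followed as a list of 16, among them the TAK1 kinase Map3k7, its adaptors Tab1 to Tab3, the ubiquitin-conjugating enzymes of the chains TRIM5 builds, Traf6 and NF-κB subunits. All 16 were tested, 12 with a higher and 4 with a lower level in Bmal1;CKO, and the median log2 difference was 0.28. An unadjusted p of 0.05 was passed by 3 of them (18.8%, against 4.92% of all tested genes), and by 0 at an FDR of 0.05. Nlrp3, the inflammasome sensor that Trim30a is known to restrain, had 22.1, 19.5 and 151 normalized counts in control and 326, 450.0 and 246 in Bmal1;CKO. The lowest Bmal1;CKO library lay above the highest control library, with a log2 difference of 3.00 (SE 0.98, adjusted p = 0.883 in limma-trend). The conjugating enzyme variant Ube2v2 was lower in Bmal1;CKO (-1.46, SE 0.57) and Tab1 higher (0.74, SE 0.30), both with adjusted p = 0.883 in limma-trend. Without Bmal1;CKO library 5, 0 of the 16 passed the unadjusted threshold.

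Interferon response genes outside the cluster had no common direction that held in every setting. Of 34 tested, 21 had a higher and 13 a lower level in Bmal1;CKO, where 11570 of all 20459 genes were higher and 8889 lower, and the median log2 difference was 0.51. An unadjusted p of 0.05 was passed by 3 (8.82%, against 4.92% of all tested genes), all higher: Irf9, a subunit of the interferon-activated factor ISGF3 (1.08), the GTPase Igtp (1.00) and the RNA sensor Dhx58 (3.30), each with adjusted p = 0.883 in limma-trend. The median turned to -0.08 and the count to 0 without Bmal1;CKO library 4, while the count was 6 without control library 3. For 6 of the 9 members, the element printed above is in the window at the start, and these 6 included genes that were lower (Trim5, Trim12a, Trim30d) and genes whose groups overlapped (Trim34a, Trim12c, Trim30a).

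Of 60 Trim genes elsewhere in the genome, 37 were tested, 28 with a higher and 9 with a lower level, with a median log2 difference of 0.41, while over all 20459 genes it was 0.11. The median of the list was 0.14 without control library 1, 0.14 with edgeR and 0.15 with DESeq2. Trim55, a muscle RING-finger gene, was the sole gene at an unadjusted p under 0.05, or 2.70% of the 37. Its values were 0, 6.50 and 45.7 normalized counts in control and 180.0, 100.2 and 105 in Bmal1;CKO (log2 difference 4.14, SE 1.49, adjusted p = 0.883 in limma-trend), and with edgeR or DESeq2 the count was 0.

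The pattern of Trim12a, with at most 10 reads in each library of one genotype and at least 50 in each library of the other, was shared by few genes. It was found for 25 of the 34419 genes with a read (0.0726%), 4 of them low in Bmal1;CKO and 21 low in control. Of the members it took in Trim12a alone, since Trim5 had 8 reads in control library 1, Trim30d had 33 in Bmal1;CKO library 6 and Trim34b had 35 in Bmal1;CKO library 5. Besides Trim12a (-8.76), the genes low in Bmal1;CKO were the long noncoding RNA Gm19951 (-5.86 on the log2 scale) and the processed pseudogenes Gm10709 (-5.84) and Gm5561 (-4.80), none on chromosome 7. Those low in control were led by the long noncoding RNA Gm42743 (8.33), the kallikrein Klk1b22 (8.01), Prss35 (7.61), Xist (7.50), A530010L16Rik (7.43), the gluconeogenic enzyme Fbp1 (7.23), Gm13898 (7.21), the melatonin receptor Mtnr1a (7.21), Gm35082 (7.18) and Rnf138rt1 (7.02). Of the 25 genes, 6 are on chromosome 7, Trim12a and Klk1b22 among them. Besides Trim12a, only Gm35082, at 3.57 Mb, is within 10 Mb of the cluster. No share over all genes was computed for the chromosome or for this distance, so nothing is read from either.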

How the data were processed

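After trimming (Trimmomatic) and alignment to mm10, the GRCm38 build (Bowtie), the authors used featureCounts to count reads per gene. They deposited a signal per gene and library, a read count scaled by that library's size factor from DESeq2. Versions, the strand setting and the treatment of multi-mapping reads are not given in the sources used here. The deposited table also holds the authors' mean, fold change and p-value columns, which were not used. Dividing each column by its smallest step gave whole reads for 100% of the values (tolerance 0.01).

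A gene was fitted if 3 or more libraries had 10 or more reads on it. Its log2(normalized count + 1) values entered limma-trend with a single term, genotype, and Benjamini-Hochberg adjustment over all 20459 genes (R 4.3.3, limma 3.58.1). Fold changes on this scale are understated for low genes. Alternatives were a pseudocount of 0.5 or of 10, TMM-scaled log2 CPM (prior count 2), edgeR 4.0.16 on TMM-scaled reads, DESeq2 1.42.0, 2 other filters, and leaving out each library. The fit was tested on simulated data. Tables used numpy 2.4.6 and pandas 2.3.3 in Python 3.11.15, intervals scipy 1.17.1, and figures matplotlib 3.10.9.

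The members and gene lists were chosen with earlier results of these data known. Genes named are the 9 members, Arntl, tested genes inside the cluster, the 2 nearest tested genes on either side, up to 3 genes of smallest p under 0.05 per list, up to 10 genes per direction that share the pattern of Trim12a, and markers. Gm15133 and Ddx3y were added after their values were seen. Gene bodies come from the deposited table, with 1 added to the start, and 55141 of its 55487 identifiers are in GENCODE M21. Sequences are from RefSeq (GRCm38.p6), where all 9 members matched by symbol.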

Additional observations from a re-analysis of the deposited data

How the results depend on the processing

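The count of genes at an FDR of 0.05, 0 as reported, was 67 with DESeq2, 1 with all genes of at least 1 read in total, 1 with at least 10 reads in every library, and 0 to 6 when 1 library was left out, with 6 without control library 1. The count at an unadjusted p under 0.05, 1007 as reported, ran from 318 to 2332 with 1 library left out. Under the same omissions the count ran from 0 to 4 for signalling partners (3 as reported), from 0 to 6 for interferon response genes (3), from 0 to 3 for other Trim genes (1), and stayed at 0 for cluster neighbours. For other Trim genes it was 0 with edgeR, 0 with DESeq2 and 0 with at least 10 reads in every library. Of the 7 fitted members, 4 had a negative log2 difference. This became 1 of 1 with at least 10 reads in every library, and 2 to 4 with 1 library left out (2 of 5 without control library 2 or without control library 3). Members without overlap numbered 4 as reported, 4 after TMM scaling and 4 to 6 with 1 library left out. Leaving out a library cannot make groups that are apart overlap, so this count could only stay or rise. The log2 difference of Trim34a, 0.21 as reported, turned to -0.18 with a pseudocount of 10, -0.93 with edgeR, -0.91 with DESeq2, -1.50 without control library 1 and -0.16 without Bmal1;CKO library 4, and ran from -1.50 to 1.32 over the omissions. The other fitted members kept their direction wherever they could be fitted. Trim12a passed the filter only through its control libraries and Trim34b only through its Bmal1;CKO libraries. Leaving out a library of the high group therefore dropped the gene, and nothing is read from the kept direction of these genes. Over all 6 omissions, Trim30d ran from -6.75 to -4.79, Trim30a from -0.94 to -0.24 and Trim12c from 0.40 to 3.42. Others fell below the filter in 3 of the 6 omissions: Trim12a ran from -9.20 to -8.01 over the Bmal1;CKO omissions alone, Trim34b from 4.63 to 5.53 over the control omissions alone, and Trim30b from -3.24 to -0.70 over 3 omissions. With at least 10 reads in every library, Trim30a alone was fitted. With a pseudocount of 10, Trim12a gave -6.65 and Trim34b 2.67, since a larger pseudocount shrinks differences of low values, and DESeq2 gave 6.03 for Trim34b. Where not stated, the cause was not tested. No paired analysis was possible because the columns of the table carry no replicate number that matches the labels. Depth limits the members with few reads most, Trim30b, Trim30c, Trim5 and Trim34b, and Trim5 and Trim30c were not fitted because under 3 libraries had 10 reads.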
